A study of Mus musculus with 70 samples.

Results

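The genes described here are 28 lysosomal hydrolase, lysosomal membrane and lysosome-associated genes, chosen by symbol from a fixed list and read from 3 deposited count tables of a mouse study of macrophage osteopontin in nonalcoholic steatohepatitis (NASH). The tables together hold 25089 gene symbols, of which 23732 are in all 3, and all 28 members were present in each table. No measured value of these libraries entered the choice rule itself. Poly(A) RNA of male and female mice had been sequenced, both from total liver and from F4/80high CD11blow cells isolated as its resident macrophages, after 24 weeks of feeding with a NASH diet or a control diet. The control genotype is labelled Lyz2.Cre+/+ (called WT in the sample titles and here). That label names Cre recombinase at the locus of lysozyme 2, a gene of macrophages, monocytes and neutrophils. Lyz2 levels differed widely between libraries of that label, as given below, and whether all carried the labelled genotype was not tested. The other genotype is labelled OpnKI Mye, KI in the titles and here. Its name points to a myeloid knock-in of Opn, the older symbol of the osteopontin gene Spp1. The 70 libraries make 16 groups. Each group had 4 libraries except the NASH groups of macrophages, with 5 libraries per genotype in males and 6 in females. No label gives the age of the mice at the start of feeding or says that libraries came from separate mice. The p values therefore set group differences against the spread between these libraries, which may be partly technical.

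Lysosomes are acidic organelles in which hydrolases made in the endoplasmic reticulum break down proteins, glycans and lipids taken up by endocytosis, phagocytosis or autophagy. Most soluble hydrolases reach the lysosome through the mannose 6-phosphate tag, and the lumen is kept acidic by the V-ATPase, a proton pump. The transcription factor TFEB and its relatives bind a palindromic stretch, the CLEAR element, near the starts of many lysosomal genes. In the liver, resident macrophages (Kupffer cells) hold many lysosomes, and in steatohepatitis macrophages that take up lipid are known for high levels of several of these genes.

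Promoter sequences of RefSeq (build GRCm38.p6, from 250 bases before to 50 after the annotated start) were matched by symbol for 24 of the 28 members, which have 27 promoters in that table. The 8-base core of the CLEAR element, TCACGTGA, is its own reverse complement and was found in 4 of the 27 member promoters, those of Cln3, Ctsa, Ctsd and Gla, against 0.974% of all 32851 promoters of the same length. The shorter CACGTG, which lies inside that core, was found in 8 of the 27 (Cln3, Ctsa, Ctsd, Ctsf, Ctsl, Gaa, Gla and Lamp1) against 7.15% of all promoters. The related stretch TCATGTGA, searched on both strands, was found in 4 of the 27 (Ctss, Gla, Grn and Tpp1) against 0.986%. A match is a run of letters in this window and not a measured binding site. Gla and Ctsd are among the members with called diet differences in macrophages below, both higher. Ctsa is also called there, lower with diet, and holds the core 13 bases before its annotated start, but its window is not shown. Cln3 is not called in macrophages. Short windows around the core are shown for the minus-strand genes Gla, Ctsd and Cln3. The core is in capitals, 5′ to 3′ in the direction of the gene.
Gla, chrX:134601182-134601211, minus strand: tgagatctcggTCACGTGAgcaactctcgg
Gla, chrX:134601215-134601244, minus strand: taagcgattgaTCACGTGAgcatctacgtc
Ctsd, chr7:142387908-142387937, minus strand: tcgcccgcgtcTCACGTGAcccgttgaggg
Cln3, chr7:126583340-126583369, minus strand: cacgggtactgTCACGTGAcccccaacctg
The windows of Ctsd and Cln3 overlap an annotated untranslated exon of their own gene in GENCODE M21, and those of Gla overlap one of the neighbouring gene Hnrnph2.

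Ctss and Ctsk, which code for cathepsins S and K, are neighbours on the plus strand of chromosome 3, separated by 17423 bases, and had the largest diet differences of the 28 members in male liver. Their 250 bases before the annotated start are shown for that reason. Capitals mark GAGGAA on either strand, a purine-rich stretch that holds the GGAA core of ETS-family factors such as the myeloid factor PU.1. It was found in 12 of the 27 member promoters against 28.3% of all promoters. Neither of these upstream stretches holds TCACGTGA or CACGTG.
Ctsk, chr3:95498960-95499209, plus strand: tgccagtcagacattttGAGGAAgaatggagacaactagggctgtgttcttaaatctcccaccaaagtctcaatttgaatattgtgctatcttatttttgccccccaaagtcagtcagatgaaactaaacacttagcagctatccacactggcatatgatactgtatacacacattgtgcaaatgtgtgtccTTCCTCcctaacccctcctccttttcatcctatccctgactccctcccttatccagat
Ctss, chr3:95526536-95526785, plus strand: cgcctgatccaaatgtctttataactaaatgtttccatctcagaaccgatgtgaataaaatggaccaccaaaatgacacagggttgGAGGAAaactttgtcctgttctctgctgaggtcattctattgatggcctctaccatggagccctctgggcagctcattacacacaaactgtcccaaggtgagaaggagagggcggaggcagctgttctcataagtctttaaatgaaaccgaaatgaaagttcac

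Library totals ran from 11245097 to 29966174 counts in liver and from 16512356 to 26244679 in macrophages. Spp1 in macrophages was at 1.43 to 11.3 CPM (counts scaled to a common library total, the usual CPM unit) in the KI control groups and at 0 to 0.516 in the WT control groups, in the direction of the genotype labels. In NASH livers, on the same scale, Spp1 went against that direction: the male WT libraries ranged from 133 to 698 CPM and the KI ones from 22.2 to 65.8, without overlap. Female WT NASH livers ranged from 53.4 to 92.8 CPM and KI ones from 26.6 to 58, with overlap. In control-diet livers of both sexes the genotypes overlapped in Spp1. KI and WT liver below therefore mean the libraries labelled so. Over the genes with low summed counts used for the check, male liver WT control replicates 3 and 4 differed by less than counting noise. They were counted as 1 sample, so that this group has n = 3. Most members have higher counts in liver than the genes checked. Replicates 3 and 4 differed in total (11245097 and 18765036 counts), in Xist (626 and 446 CPM) and in the members' share of all counts (0.777% and 0.615%). The effect of merging them on the members was tested only by the refits given below. Replicates 3 and 4, and male macrophage WT control replicate 4, had sex genes that contradict their label. In 10 of the 38 macrophage libraries Lyz2 was at 43.3 to 166 CPM, against 1470 to 3780 CPM in the other 28. Of the 10, 8 were control-diet libraries and 2 were female KI NASH libraries. Low Lyz2 and diet are therefore partly confounded in macrophages. Macrophage counts of called genes are given with and without the 10 libraries. Livers differed in Lyz2 too, on the scale of library totals. Female WT livers held 1.05 to 2.58 CPM (control diet) and 1.4 to 2.15 CPM (NASH diet). Male WT livers held 33.4 to 96 and 139 to 310 CPM, diets in that order. Male KI livers spanned 0.48 to 26.8 and 1.1 to 54.8 CPM, and female KI livers 19.9 to 43.4 and 1.25 to 68.9 CPM. The part of this spread at the Cre locus in the liver comparisons was not tested.

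The 28 members took 4.18 to 5.2% of all counts in macrophage libraries and 0.517 to 0.916% in liver libraries. For 23 of the 28, the lowest of the 38 macrophage libraries lay above the highest of the 32 liver libraries in CPM, against 26.5% of the 14084 genes of the tested tables. The tissues were counted in separate tables and their RNA was isolated with different kits, so this is a description with no test. The remaining 5, Ctsk, Ctsl, Gaa, Galns and Lamp2, overlapped between the sample types.

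Ctss, a cysteine protease of antigen-presenting cells, had the largest ratio of medians, 47.9 times higher in macrophages (median 3130 CPM) than in liver (median 65.3 CPM). Laptm5, a lysosomal membrane protein of blood cells, followed at 44.0 times. Gla, the alpha-galactosidase that is deficient in Fabry disease, was 20.4 times higher, and Ctsc, which activates serine proteases of granules, 19.5 times. At the other end, Lamp2, a structural membrane protein also needed for autophagy, was 1.08 times the liver level and Ctsl, a cysteine protease of most cells, 0.731 times.

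Per kilobase of exon (GENCODE M21), the median macrophage level was highest for Ctss (2300 CPM per kilobase), Psap (2250), Ctsb (2030) and Ctsd (2030), whose ranges over libraries overlap each other. Psap encodes prosaposin, the precursor of small activator proteins of sphingolipid breakdown, and Ctsd encodes the main lysosomal aspartic protease. In liver, Lamp1, the most abundant lysosomal membrane glycoprotein, was highest at 272 CPM per kilobase, followed by Ctsd (199), Psap (189), Ctsz (162) and Ctsb (128). Ctsk, the collagen-degrading cathepsin of osteoclasts, was the lowest in both, at 0.662 CPM per kilobase in macrophages and 0.534 in liver. It was counted with 4 to 144 reads per liver library and 5 to 84 per macrophage library, so that its values carry more counting error than those of any other member.

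**Figure D1:**
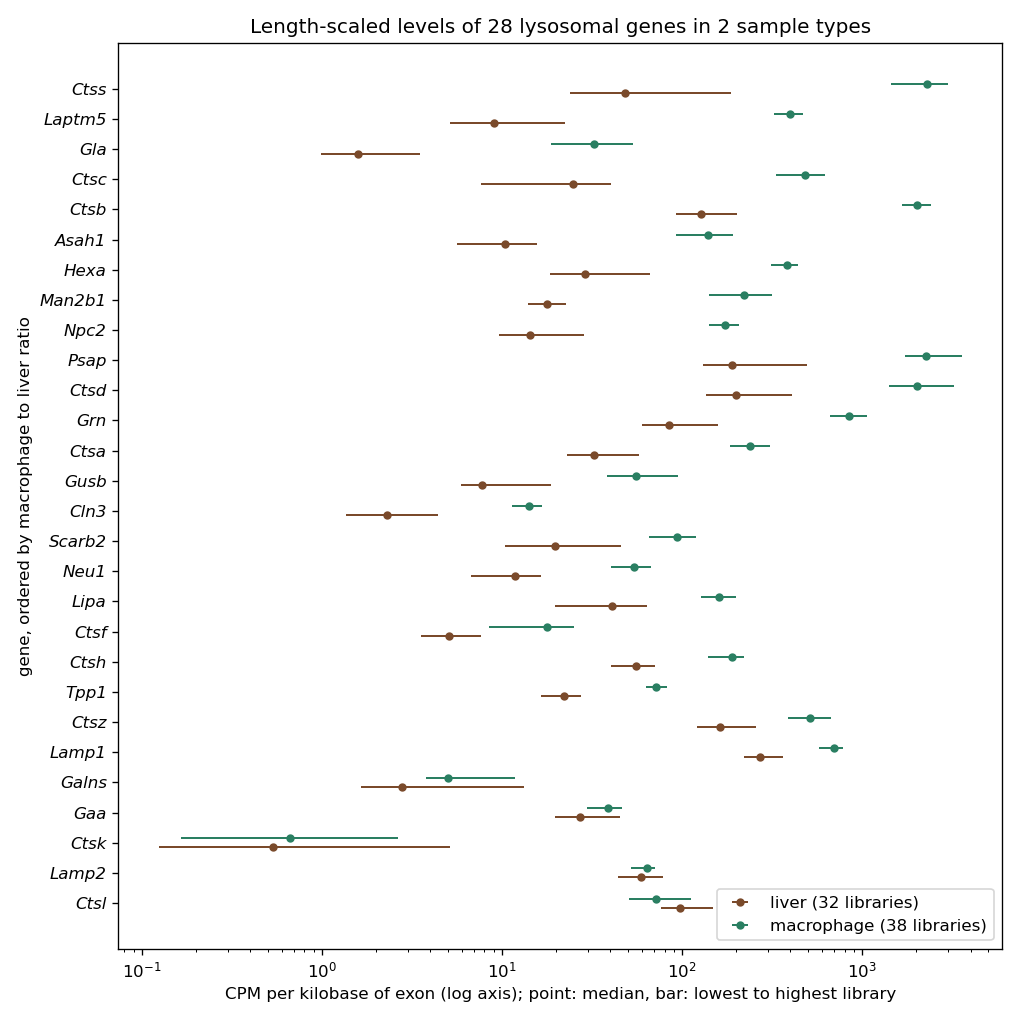
Median level (points) and range from the lowest to the highest library (bars) of each member in 32 liver and 38 macrophage libraries, in CPM per kilobase of exon on a log axis, with genes ordered by the ratio of medians. Ctss stands at the top at 47.9 times, and only Ctsl has a lower median in macrophages than in liver.

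In male WT liver, the NASH diet was accompanied by higher levels of 8 of the 28 members and lower levels of 2. The background of this comparison was broad, with 21.0% of 12988 tested genes past the threshold of an adjusted p of 0.05 in edgeR's quasi-likelihood test (11.3% higher, 9.74% lower). The 8 were Ctsk, Ctss, Laptm5, Hexa, Psap, Lipa, Ctsd and Ctsb, and the 2 were Ctsh and Gaa. The median log2 fold change was 0.14 over the 28 and -0.01 over all tested genes. The members' share of all counts was 0.748 to 0.916% in the WT NASH livers against 0.517 to 0.777% in the WT control livers. Control replicates 3 and 4 were taken separately for this share, at 0.777% and 0.615%.

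Among the cysteine cathepsins, Ctss (chr3:95526786-95556403) was at 37.3, 44.3 and 61.0 TMM-scaled CPM in the control livers and at 205, 127, 122 and 102 CPM in the NASH livers. The groups did not overlap, and NASH replicate 1 was the highest. The log2 fold change was 1.55 ± 0.24 (SE, adjusted p = 0.00143). Ctsk (chr3:95499256-95509362) was at 1.2, 0.688 and 0.634 CPM on the control diet and at 6.28, 2.38, 3.22 and 1.96 CPM on the NASH diet. NASH replicate 1 was again the highest, the groups did not overlap, and Ctsk had a log2 fold change of 2.05 ± 0.52 (adjusted p = 0.0143). Without the WT control replicate 2 the Ctsk call was lost. Ctsb, an abundant cysteine protease, rose by 0.35 on the log2 scale with all 4 NASH livers (905 to 982 CPM) above the controls (644 to 842 CPM). That call was lost without any 1 of WT control replicates 1 or 2, the 4 WT NASH replicates or KI control replicate 2, with log2 fold changes from 0.26 to 0.46. Ctsh, an aminopeptidase-like cathepsin, fell by 0.48 on the log2 scale, from 231 to 262 CPM in the controls to 146 to 199 CPM.

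Of the glycan hydrolases, Hexa, the alpha subunit of beta-hexosaminidase, which is lost in Tay-Sachs disease, was at 53.8, 45.7 and 65.0 CPM in the control livers and at 103, 103, 121 and 98.0 CPM in the NASH livers. No library overlapped, and the spread within each group was small beside the difference. Its log2 fold change was 0.95 ± 0.14 (adjusted p = 0.00104), the smallest p of the 28. Gaa, the lysosomal glycogen-degrading enzyme lost in Pompe disease, fell by 0.37 on the log2 scale, from 150 to 167 CPM to 123 to 125 CPM. Its call was lost without WT control replicate 1. Galns, a sulfatase of keratan sulfate, reached 28.2 CPM in 1 NASH liver against 9.43 to 13.4 CPM in the other 3, and did not pass the test.

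Among the lipid-handling members, Psap was at 530, 474 and 643 CPM in the control livers and at 1100, 827, 1030 and 901 CPM in the NASH livers. The groups did not overlap, and the log2 fold change was 0.81 ± 0.14 (adjusted p = 0.00193). Lipa, the acid lipase that releases fatty acids and cholesterol from endocytosed lipoproteins, was at 164, 155 and 256 CPM against 249, 295, 398 and 296 CPM. Here 1 control, the merged library of replicates 3 and 4, lay within the NASH range. The log2 fold change of Lipa was 0.69 ± 0.18 (adjusted p = 0.0182), and its call was lost without WT control replicate 1, WT control replicate 2 or WT NASH replicate 3.

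Of the membrane proteins, Laptm5 was at 22.3, 22.9 and 34.2 CPM in the control livers and at 68.0, 39.8, 58.8 and 55.0 CPM in the NASH livers. The groups stood apart, with a log2 fold change of 1.06 ± 0.21 (adjusted p = 0.00466). The aspartic protease Ctsd rose by 0.50 on the log2 scale, from 508 to 581 CPM to 704 to 810 CPM, with an adjusted p of 0.00589. Lamp1, Lamp2, Scarb2 and Cln3, membrane proteins of most cell types, did not pass the test. When only the 2 groups compared were fitted, 5 members passed, all higher, with 1089 genes called in all against 2730 in the main fit.

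Other cell types moved with these members. The summed CPM of 6 hepatic stellate cell markers was 613 to 1470 in the WT NASH livers and 254 to 381 in the WT control livers, with 5 of the 6 genes higher. The summed CPM of 6 recruited monocyte markers was 31.9 to 72.9 against 10.1 to 21.4, with 3 of the 6 higher, and Chil3 was at 0 in at least 1 control liver. Of 8 Kupffer cell markers 1 was higher, with sums of 474 to 699 against 309 to 594. Of 6 markers of lipid-associated macrophages 4 were higher and 1 lower, and the fall of their sum, from 292 to 490 CPM to 124 to 298 CPM, followed the abundant Fabp5, while Trem2 was at 8.13 to 13.6 CPM against 0.321 to 1.27 CPM and Gpnmb at 15.1 to 54.3 CPM against 0.241 to 0.444 CPM. The 7 hepatocyte markers summed to 87500 to 93700 CPM in the WT NASH livers and 118000 to 187000 CPM in the controls, without overlap, with 4 of 7 lower. In whole tissue, a change in the number of cells of a type and a change in RNA per cell cannot be told apart, and the part of these markers in the result was not tested.

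**Figure D2:**
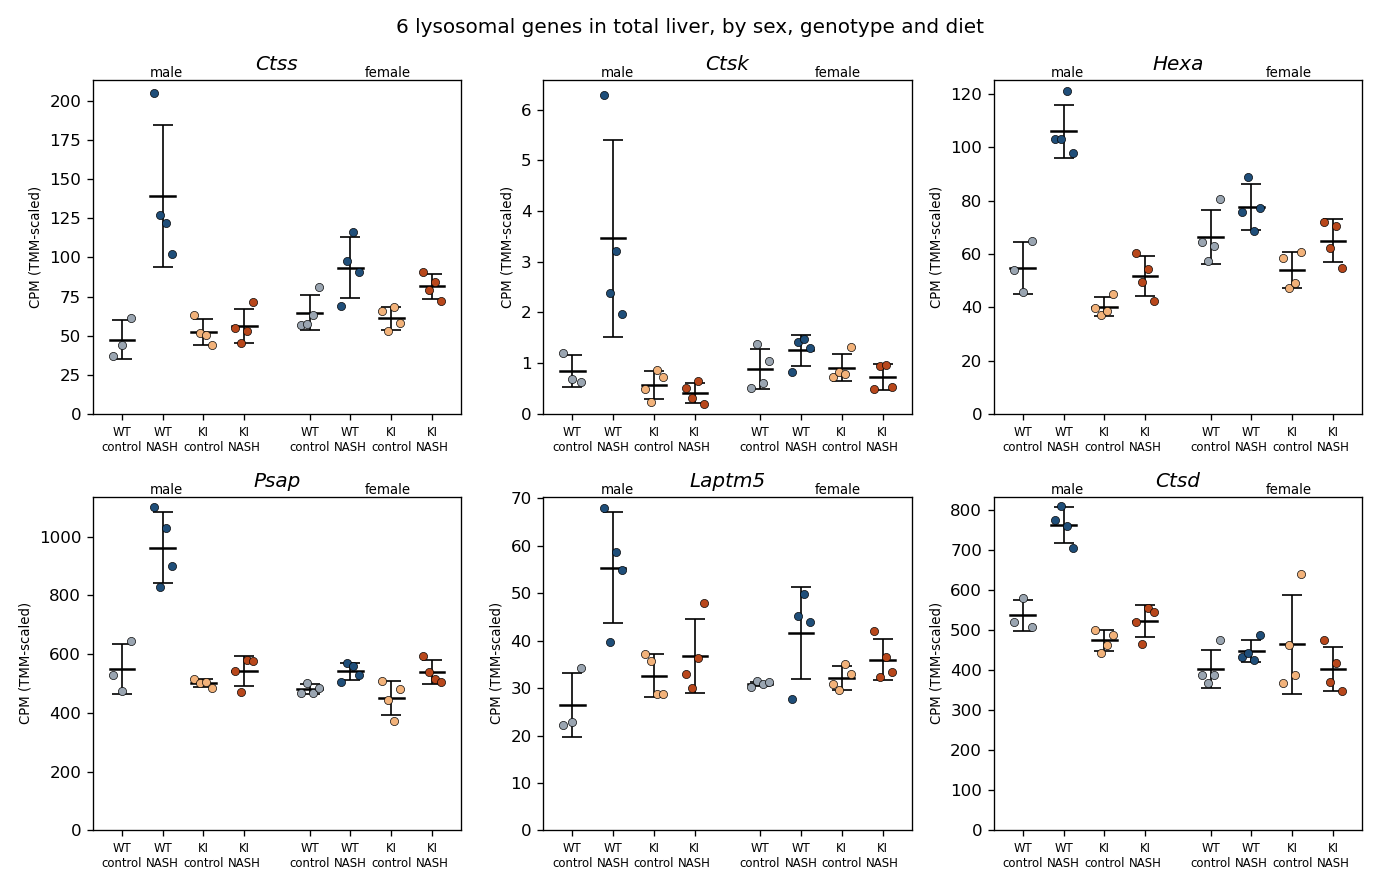
TMM-scaled CPM of 6 members in each liver library (points), with the group mean (line) and SD (whiskers), by sex, genotype and diet. Scaling was done within each sex. In males the WT NASH libraries lie above the WT control libraries in all 6 genes, while the KI NASH libraries lie at or near the control levels.

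Other lysosomal genes in male WT liver gave the following counts. Of 31 further enzymes, cofactors and transporters, 8 rose and 1 fell. Cd63, a tetraspanin of lysosomes and late endosomes, rose most, from 3.44 to 4.31 CPM to 20.9 to 110 CPM (log2 fold change 3.77 ± 0.56, adjusted p = 0.00107), and Cstb, a cytosolic inhibitor of cathepsins, rose by 1.32 (adjusted p = 0.0179). Of 15 V-ATPase subunits tested 1 rose (Atp6v1b2, 0.40), and of 10 regulators and sorting genes Gnptab rose by 0.61 and Mcoln1 fell by 0.38. Tfeb itself did not pass the test. The median log2 fold change was 0.12 over the 31 genes, 0.01 over the V-ATPase subunits and -0.003 over the regulators.

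In male KI liver, none of the 28 members passed the test for the NASH diet, and neither did any other gene (0.0% of 12988). At an unadjusted p under 0.05, 4 members were counted, and DESeq2 called 0 members. The share of all tested genes under an unadjusted p of 0.05 was not counted, here or below. Such counts of members are therefore not read as a result. The members with the smallest p were Hexa, at 36.9 to 45.1 CPM in the KI control livers and 42.5 to 60.5 CPM in the KI NASH livers (log2 fold change 0.37 ± 0.13, adjusted p = 0.589), and Lipa, at 165 to 179 CPM and 198 to 266 CPM (0.46 ± 0.17, adjusted p = 0.589). The Lipa libraries did not overlap between the diets, and those of Hexa did. Ctss was at 43.9 to 63.4 CPM on the control diet and 45.0 to 71.5 CPM on the NASH diet.

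The test of the difference between these diet effects, the interaction, called 1 member, against 1.13% of all tested genes (0.554% higher, 0.577% lower). For Ctss the diet effect was smaller in KI than in WT (interaction -1.45 ± 0.32 on the log2 scale, adjusted p = 0.0463). For Ctsk, Laptm5, Psap and Hexa the interaction was -2.49 ± 0.72, -0.89 ± 0.28, -0.70 ± 0.18 and -0.59 ± 0.19, with adjusted p values of 0.105, 0.12, 0.0807 and 0.124. These did not pass. The Ctss call was fragile, since it was lost without any 1 of 13 of the 15 libraries while the value stayed between -1.66 and -1.18. Without the merged library of WT control replicates 3 and 4, whose sex genes contradict the label, 4 members were called lower. All genes called then numbered 626, against 147 in the main fit.

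On the NASH diet, male KI livers had lower levels than male WT livers for 13 of the 28 members and a higher level for 1, against 37.0% of 12988 tested genes (19.6% higher, 17.4% lower). This comparison shares its 4 WT NASH livers with the diet comparison in WT. The 13 were Ctsk, Ctss, Hexa, Psap, Npc2, Laptm5, Ctsd, Cln3, Asah1, Gusb, Ctsb, Ctsa and Ctsz, and Scarb2 was higher. The median log2 fold change was -0.33 over the 28 and -0.02 over all tested genes. All 5 lipid-handling members had negative values, and 3 of them passed.

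Ctsk was at 0.502, 0.314, 0.643 and 0.186 CPM in the KI NASH livers, below every WT NASH liver (1.96 to 6.28 CPM), with a log2 fold change of -3.02 ± 0.48 (adjusted p = 0.000473). Ctss was at 55.0, 45.0, 53.0 and 71.5 CPM, again below every WT NASH liver (102 to 205 CPM), with a log2 fold change of -1.31 ± 0.22 (adjusted p = 0.000636). Both genes thus stood in the KI NASH livers near their values in the control-diet groups. Hexa was at 60.5, 49.3, 54.4 and 42.5 CPM against 98.0 to 121 CPM (-1.04 ± 0.13, adjusted p = 0.000118). Psap was at 544, 471, 579 and 576 CPM against 827 to 1100 CPM (-0.83 ± 0.12, adjusted p = 0.00032). No library of these 4 genes overlapped.

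Npc2, the soluble sterol-binding protein lost in a form of Niemann-Pick type C disease, was at 68.9, 54.9, 75.7 and 63.2 CPM in the KI NASH livers and at 125, 110, 103 and 85.5 CPM in the WT NASH livers. It did not rise past the threshold with diet in WT, where the controls were at 75.2 to 101 CPM, so its genotype difference on the NASH diet (-0.69 ± 0.14, adjusted p = 0.002) came with no called diet difference. Scarb2, the membrane receptor that carries glucocerebrosidase to the lysosome, went the other way, at 108, 116, 139 and 112 CPM in KI and 52.6, 72.8, 79.3 and 99.2 CPM in WT (0.64 ± 0.19, adjusted p = 0.0189). Its groups did not overlap, and its call was lost without either WT NASH replicate 1 or replicate 3 of the KI NASH livers.

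The other called members, from Laptm5 (-0.59) to Ctsz (-0.29), lay between those log2 fold changes. Asah1, the acid ceramidase, Gusb, the beta-glucuronidase, and Laptm5 had at least 1 overlapping library, while Ctsd, Cln3, Ctsb, Ctsz and Ctsa, the protective protein of the sialidase complex, had none. The Gusb call was lost without WT NASH replicates 1, 2 or 3 or KI NASH replicates 1, 2 or 4, that of Laptm5 without WT NASH replicates 1 or 3 or KI NASH replicates 1, 2 or 3, and that of Ctsz without replicate 3 of WT NASH or replicate 1 of KI NASH. The other called members kept their call in all 15 fits that left out 1 library.

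Several values moved with the genotype on the NASH diet in male liver. The stellate marker sum was 231 to 358 CPM in the KI livers against 613 to 1470 CPM in the WT livers, with 6 of 6 genes lower, and 5 of 6 lipid-associated macrophage markers were lower. Monocyte markers summed to 12.1 to 25.4 CPM in the KI livers against 31.9 to 72.9 CPM. Kupffer marker sums overlapped, at 339 to 677 CPM in the KI livers against 474 to 699 CPM, with 1 of 8 genes lower. T and B cell markers summed to 2.1 to 3.99 CPM in the KI livers against 5.42 to 10.8 CPM, with 2 of 7 lower, and Lyz2 was at 1.12 to 55 CPM against 127 to 250 CPM, both without overlap. Transcript length moved with this comparison too: over 12832 tested genes the Spearman correlation of exonic length with the log2 fold change was 0.34, and the median log2 fold change was -0.29 in the shortest 20% of genes and 0.32 in the longest 20%. Over the 28 members the same correlation was 0.47, and with the ratio of macrophage to liver level it was -0.51 (-0.15 over 12930 genes). Between the male genotypes on the control diet, length correlated with the log2 fold change at 0.34 over all genes and 0.14 over the members. The median there was -0.19 in the shortest 20% and 0.21 in the longest 20%. For diet in male WT liver the correlations with length were -0.1 and -0.55. These are descriptions across genes, which share the same libraries, and their part in the result was not tested.

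Among the other lysosomal genes in this comparison, 6 of 15 V-ATPase subunits were lower and none higher, led by Atp6v0d2 (-2.05, adjusted p = 0.0283) and Atp6v1f (-0.48, adjusted p = 0.00334). Of the 31 further enzymes, cofactors and transporters 8 were lower and 3 higher, with Cd63 at 2.64 to 7.3 CPM in KI against 20.9 to 110 CPM in WT (-3.48 ± 0.48, adjusted p = 0.000204) and Cstb at -1.79 (adjusted p = 0.00102). Igf2r, a receptor of mannose 6-phosphate, was higher in KI by 0.51 (adjusted p = 0.00199), and Gnptg, which helps to make that tag, was lower (-0.35, adjusted p = 0.0264).

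On the control diet, no member differed between male KI and WT livers (0 of 28 against 4.67% of tested genes), with 6 members at an unadjusted p under 0.05. Ctsa came closest, at 144 to 165 CPM in the KI livers against 173 to 211 CPM in the WT livers (-0.38 ± 0.11, adjusted p = 0.0598), followed by Asah1 at 20.1 to 24.9 CPM and 26.5 to 36.2 CPM (-0.50 ± 0.15, adjusted p = 0.061). Neither gene overlapped between the genotypes. DESeq2 called 6 members lower in this comparison, and edgeR called 4 when WT control replicates 3 and 4 were kept as separate libraries. Over all genes those fits called 1315 and 1307, against 606 here. Without WT NASH replicate 1, which enters only through the shared estimate of the spread, 2 members were called lower, and 835 genes in all.

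In female liver the members differed little. With the NASH diet in WT, 0 of 28 passed the test (0.0526% of 13315 genes), and 5 had an unadjusted p under 0.05. Ctss had the smallest p, at 56.8, 57.7, 63.3 and 81.1 CPM on the control diet and 69.0, 98.0, 116 and 90.9 CPM on the NASH diet, with 1 overlapping library on each side (0.53 ± 0.15, adjusted p = 0.146). Laptm5 followed at 30.3 to 31.4 CPM and 27.6 to 49.8 CPM (0.43 ± 0.14, adjusted p = 0.202). Without WT NASH replicate 1, the lowest of its group for both genes, 2 members were called higher. All genes called then numbered 117, against 7 in the main fit.

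In female KI liver 1 member rose and 1 fell with diet, against 8.83% of tested genes (4.21% higher, 4.63% lower). Ctsl was at 850, 701, 725 and 919 CPM on the control diet and 560, 458, 453 and 549 CPM on the NASH diet (-0.66 ± 0.13, adjusted p = 0.0102), and kept its call in every fit that left out 1 of the 16 libraries. Scarb2 was at 151, 147, 199 and 117 CPM and 217, 263, 219 and 213 CPM (0.57 ± 0.15, adjusted p = 0.0308). Neither gene overlapped between the diets. The Scarb2 call was lost without KI control replicates 1, 2 or 4 or KI NASH replicates 2, 3 or 4. When only the 2 groups were fitted 4 members passed, with 1387 genes called in all against 1176 in the main fit. The interaction of Ctsl was -0.54 ± 0.19 (adjusted p = 0.103), so a difference from its WT diet effect was not called, and no member passed that test (0 of 28 against 4.77%), with 5 members at an unadjusted p under 0.05 and 1 called by DESeq2. That test called 1 member without WT control replicate 4, WT NASH replicate 1 or WT NASH replicate 2. All genes called then numbered 404, 1198 and 992 in that order, against 635 in the main fit.

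Tfeb, the regulator of lysosomal genes, rose with diet in female KI liver (0.73 ± 0.18, adjusted p = 0.02) and had a positive interaction there (1.13 ± 0.25, adjusted p = 0.0226). In the same comparison 2 of 15 V-ATPase subunits fell, Atp6v1g1 (-0.64) and Atp6v0e (-0.42), and 1 of 31 further lysosomal genes rose (Manba, 0.35).

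Between the genotypes, female livers had no called member on the control diet (0 of 28 against 7.57%) or on the NASH diet (0 of 28 against 0.0901%). At an unadjusted p under 0.05 there were 5 and 1, and DESeq2 called 1 and 0. On the control diet Ctsa was again the member with the smallest p, at 123 to 140 CPM in the KI livers against 147 to 196 CPM in the WT livers (-0.35 ± 0.11, adjusted p = 0.0631), with no overlap, and Neu1 followed (-0.31 ± 0.11, adjusted p = 0.104). Without WT NASH replicate 1 or 4, 1 member was called lower on the control diet. All genes called then numbered 1171 and 1025, against 1008 in the main fit. On the NASH diet it was Ctsk, at 0.482 to 0.959 CPM in the KI livers against 0.819 to 1.48 CPM (-0.76 ± 0.35, adjusted p = 0.372), followed by Ctsl (-0.27 ± 0.13, adjusted p = 0.417).

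The sexes were compared in a fit of all liver libraries. Male and female livers were counted in separate tables, so sex and table cannot be told apart in these tests. The WT NASH livers also differed in Lyz2, at 139 to 310 CPM in males and 1.4 to 2.15 CPM in females. Their Spp1 was at 133 to 698 and 53.4 to 92.8 CPM. In the KI NASH livers Lyz2 overlapped between the sexes, at 1.1 to 54.8 and 1.25 to 68.9 CPM. The part of these differences was not tested. For the KI against WT difference on the NASH diet, 4 members differed between females and males, all with a less negative value in females, against 14.0% of 13415 tested genes (5.26% higher, 8.76% lower). The female minus male differences were 2.25 ± 0.59 for Ctsk (adjusted p = 0.0124), 1.09 ± 0.27 for Ctss (0.00812), 0.77 ± 0.18 for Hexa (0.00538) and 0.80 ± 0.15 for Psap (0.000776). All 4 calls were kept in each of the 31 fits that left out 1 library. The CPM values were scaled within each sex, so male and female values are not on a common scale and are only listed here. Psap was at 827 to 1100 CPM in male and 506 to 570 CPM in female WT NASH livers. In the KI NASH livers Psap was at 471 to 579 CPM and 505 to 595 CPM. Ctss was at 102 to 205 CPM in male and 69.0 to 116 CPM in female WT NASH livers. In the KI NASH livers Ctss was at 45.0 to 71.5 CPM and 72.3 to 90.6 CPM. The group means of Hexa were 106 and 77.6 CPM in WT and 51.7 and 64.9 CPM in KI, and those of Ctsk 3.46 and 1.25 CPM in WT and 0.411 and 0.732 CPM in KI, for males and females in that order. For the diet effect in WT, Psap alone differed, with a smaller effect in females (female minus male -0.59 ± 0.15, adjusted p = 0.0449, against 1.68% of tested genes, 0.85% higher and 0.827% lower), and that call was lost without any 1 of 21 of the 31 libraries. The count was 4 without the merged male WT control library, 3 without male WT NASH replicate 4, and 2 without male KI NASH replicate 4 or female WT NASH replicate 2. All genes called then numbered 664, 348, 211 and 407 in that order, against 225 in the main fit. Over 13309 genes, exonic length correlated with the sex difference of the KI effect at a Spearman value of -0.34 (-0.54 over the 28 members), and its part in the result was not tested.

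**Figure D3:**
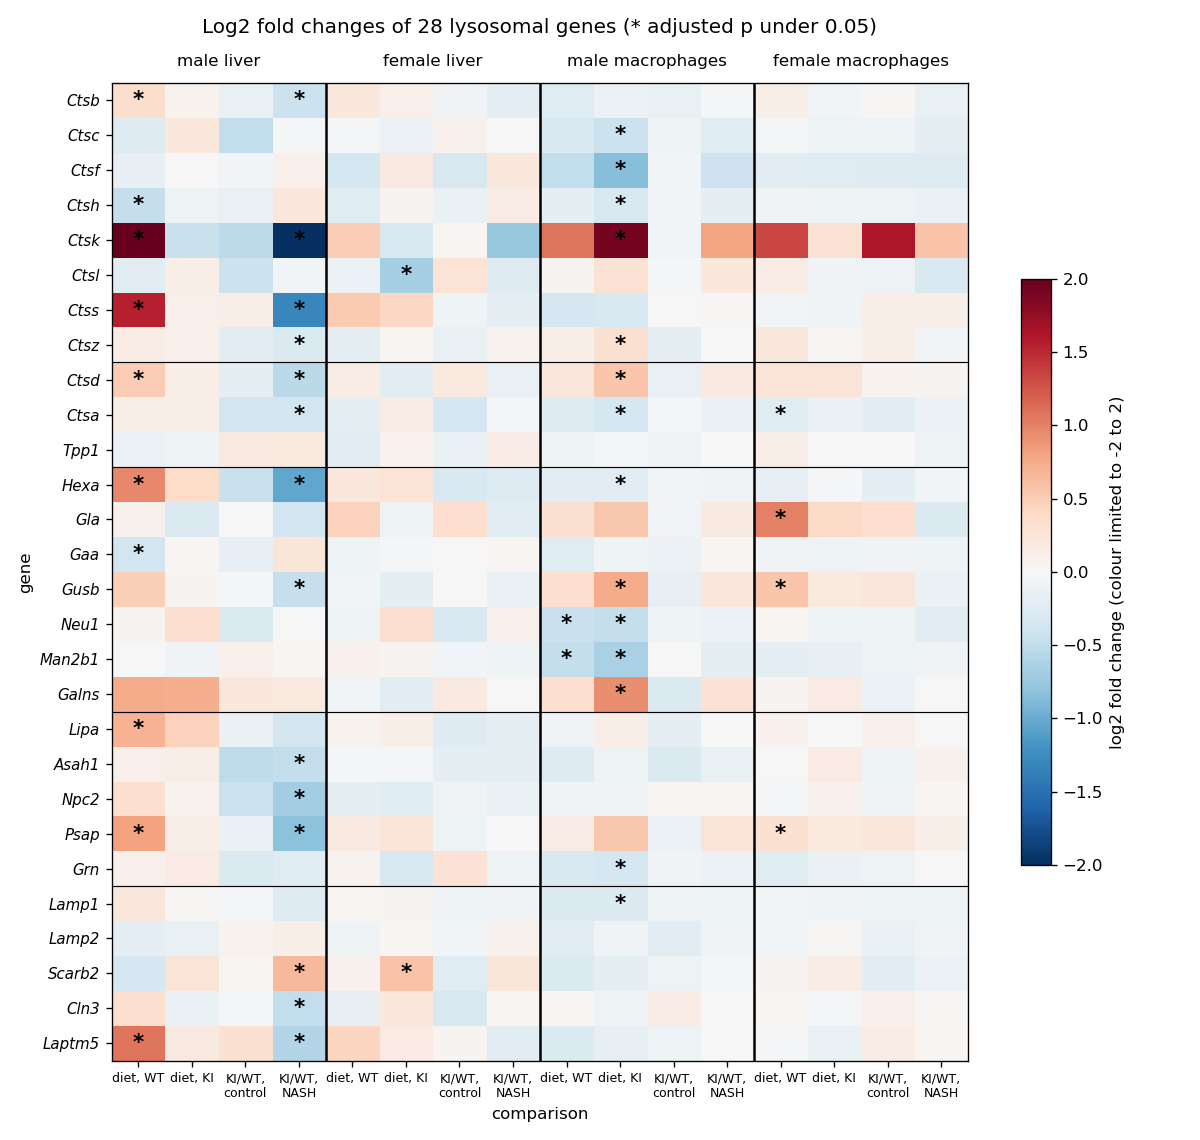
Log2 fold change (colour, limited to -2 to 2) of each of the 28 members (rows, grouped by role) in the diet and genotype comparisons of 4 sample sets (columns), with an asterisk where the adjusted p was under 0.05. Calls in liver are nearly all in males, in the WT diet and the KI against WT NASH columns, and those in macrophages are in the diet columns.

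In sorted macrophages on the NASH diet, members were called in both directions in male KI and female WT, with small changes for most members. In male and female WT, and for the members that rose in male KI, the counts were near the share of all tested genes. Those counts are not read as a trait of the members. In male KI macrophages 5 of the 28 members rose and 9 fell, against 24.0% of 13036 tested genes (15.1% higher, 8.94% lower). The 5 were Ctsk, Galns, Gusb, Ctsd and Ctsz. The 9 were Ctsf, Man2b1, Neu1, Ctsc, Ctsa, Grn, Ctsh, Lamp1 and Hexa. The median log2 fold change was -0.10 over the 28 and 0.01 over all tested genes. The members' share of all counts barely moved, at 4.27 to 4.96% in the NASH libraries and 4.48 to 4.81% in the control libraries.

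Ctsk was at 1.03, 0.47, 0.871 and 0.833 CPM in the KI control macrophages and at 3.49, 3.18, 3.73, 3.7 and 1.22 CPM in the KI NASH macrophages (1.92 ± 0.45, adjusted p = 0.00602). All NASH libraries lay above the controls, and replicate 5 stood well below the other NASH libraries. Gusb was at 221, 220, 211 and 207 CPM and 433, 322, 381, 363 and 287 CPM (0.73 ± 0.13, adjusted p = 0.00154). Galns was at 12.0, 11.3, 10.2 and 11.2 CPM and 31.4, 24.4, 22.6, 16.7 and 11.1 CPM (0.93 ± 0.25, adjusted p = 0.0147). In Galns, too, replicate 5 was the lowest of the NASH libraries and lay within the control range.

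Of the members that fell, Ctsf, a cysteine cathepsin, was at 110, 129, 99.3 and 84.1 CPM on the control diet and 49.2, 41.8, 70.5, 47.1 and 84.6 CPM on the NASH diet (-0.85 ± 0.23, adjusted p = 0.0155). Man2b1, the lysosomal alpha-mannosidase, was at 2280, 2590, 2090 and 1890 CPM and 1300, 1450, 1450, 1160 and 1670 CPM (-0.65 ± 0.13, adjusted p = 0.00284). Man2b1 did not overlap between the diets, while replicate 5 of the NASH group brought Ctsf into the control range. Ctsd, which rose, was at 4120, 4100, 4030 and 4490 CPM and 7600, 5820, 5580, 5890 and 5940 CPM (0.56 ± 0.14, adjusted p = 0.00853), with no overlap. The other called members had log2 fold changes from -0.48 (Neu1, the sialidase) to 0.31 (Ctsz, a carboxypeptidase-like cathepsin).

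Without KI control replicate 2 the count fell to 8 (5 higher, 3 lower), the calls of Ctsf, Ctsh, Ctsa, Hexa, Grn and Lamp1 being lost. All genes called then numbered 2418, against 3127 in the main fit, and 2128 without the libraries low in Lyz2. Without the libraries low in Lyz2 the count of members was 10 (3 higher, 7 lower). Ctsk, Gusb, Ctsd, Man2b1 and Neu1 were among those still called, with log2 fold changes of 1.95, 0.71, 0.53, -0.69 and -0.46. Galns was then at 0.87 with an adjusted p of 0.0584. The Ctsz call was lost without any 1 of 9 of the 18 libraries and that of Hexa without any 1 of 5.

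Markers of other cells and macrophage states moved along in the male KI macrophages. The summed CPM of 7 hepatocyte markers was 452 to 2710 in the NASH libraries and 169 to 260 in the controls, with 6 of 7 genes higher. Kupffer cell markers summed to 18500 to 34100 CPM against 38700 to 42800 CPM, with 6 of 8 lower, and the 6 lipid-associated macrophage markers were all higher, with sums of 906 to 4650 CPM against 493 to 567 CPM. Replicate 5 of the NASH group, the low library in Ctsk and Galns, had the 906 CPM, against 2920 to 4650 CPM in the other 4, and the highest Kupffer sum. Recruited monocyte markers had 4 of 6 higher and 1 lower, and Ly6c2 and Chil3 were at 0 in at least 1 control library. The part of these markers in the result was not tested.

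In male WT macrophages 2 members fell with diet and none rose, against 8.19% of tested genes (5.36% higher, 2.83% lower). Neu1 was at 258, 257, 232 and 225 CPM on the control diet and 165, 173, 228, 151 and 179 CPM on the NASH diet (-0.44 ± 0.11, adjusted p = 0.0232). Man2b1 was at 2530, 2180, 2120 and 1980 CPM and 1480, 1620, 1970, 1280 and 1590 CPM (-0.47 ± 0.13, adjusted p = 0.0387). NASH replicate 3 was the highest of its group in both and the library that brought Neu1 into the control range. The Man2b1 call was lost without any 1 of 13 of the 18 libraries. The count was 0 when only the 2 groups were fitted or the libraries low in Lyz2 were left out, with 8 and 55 genes called in all against 1068, and 7 with DESeq2, which called 1696 genes. Where the calls were lost the log2 fold changes were -0.43 and -0.44 for Neu1 and -0.46 and -0.48 for Man2b1. The count ranged from 0 to 5 when single libraries were left out, with 0 without WT control replicates 1, 2 or 3 or WT NASH replicate 4, and 5 without WT NASH replicate 3. All genes called then numbered 524, 83, 298, 277 and 1412 in that order. Kupffer cell markers summed to 25000 to 39800 CPM on the NASH diet and 40200 to 44800 CPM on the control diet, with 3 of 8 lower, and lipid-associated macrophage markers to 616 to 3130 CPM and 544 to 861 CPM, with 4 of 6 higher. The part of these markers in the result was not tested. The interaction between genotype and diet called 0 of 28 members in male macrophages, and 0.0% of all genes, with 1 member at an unadjusted p under 0.05 and 0 called by DESeq2. Gusb had the smallest p there (0.40 ± 0.18, adjusted p = 0.394), so the larger number of calls in KI is not a tested difference.

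In female WT macrophages 3 members rose with the NASH diet and 1 fell, against 12.9% of 12838 tested genes (8.44% higher, 4.42% lower). Gla was at 75.3, 61.4, 73.9 and 67.5 CPM in the control macrophages and in the 6 NASH libraries at 124 to 157 CPM (median 142), with no overlap (1.00 ± 0.20, adjusted p = 0.00513). Gusb was at 200, 189, 197 and 201 CPM against 250 to 335 CPM (median 287, 0.56 ± 0.14, adjusted p = 0.015). Both enzymes act on sugars at the end of a glycan chain or glycolipid. Psap was at 4790, 4850, 5610 and 5890 CPM against 6160 to 6900 CPM (median 6590, 0.31 ± 0.09, adjusted p = 0.0319), and Ctsa at 1360, 1240, 1190 and 1410 CPM against 1070 to 1160 CPM (median 1100, -0.24 ± 0.07, adjusted p = 0.0254).

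For none of the 4 genes did the diets overlap. The count fell to 2 without WT control replicate 1, WT NASH replicate 3 or WT NASH replicate 5. All genes called then numbered 784, 983 and 1061 in that order, against 1652 in the main fit. Gla and Gusb kept their calls in all 20 fits that left out 1 library. Psap lost its call without WT control replicates 1, 2 or 3 or WT NASH replicates 3 or 5, and Ctsa without WT control replicates 1 or 4 or WT NASH replicates 3 or 5. Lyz2 was low in 3 of the 4 WT control libraries and in none of the 6 NASH libraries. Without those, 1 control library is left, assumed to vary like the other groups, and no member passed, with log2 fold changes of 1.18 for Gla (adjusted p = 0.062), 0.61 for Gusb, 0.43 for Psap and -0.17 for Ctsa. Hepatocyte markers summed to 222 to 1710 CPM in the NASH libraries and 113 to 333 CPM in the controls, with 5 of 7 higher. The lipid-associated macrophage markers summed to 742 to 2270 CPM against 439 to 505 CPM, with 5 of 6 higher, and the part of either list was not tested.

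In female KI macrophages 0 of 28 members passed for diet (2.31% of tested genes), with 3 at an unadjusted p under 0.05 and 0 called by DESeq2. Ctsf was at 80.4 to 110 CPM on the control diet and 73.8 to 84.5 CPM on the NASH diet (-0.24 ± 0.09, adjusted p = 0.155), and Laptm5 had the next smallest p (-0.14 ± 0.07, adjusted p = 0.246). Gla was at 99.0, 126, 66.9 and 58.2 CPM in the KI controls, a wider spread than in WT, and at 66.4 to 143 CPM on the NASH diet. Its interaction was -0.62 ± 0.27 (adjusted p = 0.495), and no member passed the interaction test (0 of 28 against 0.288%, 1 at an unadjusted p under 0.05, 0 by DESeq2).

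**Figure D4:**
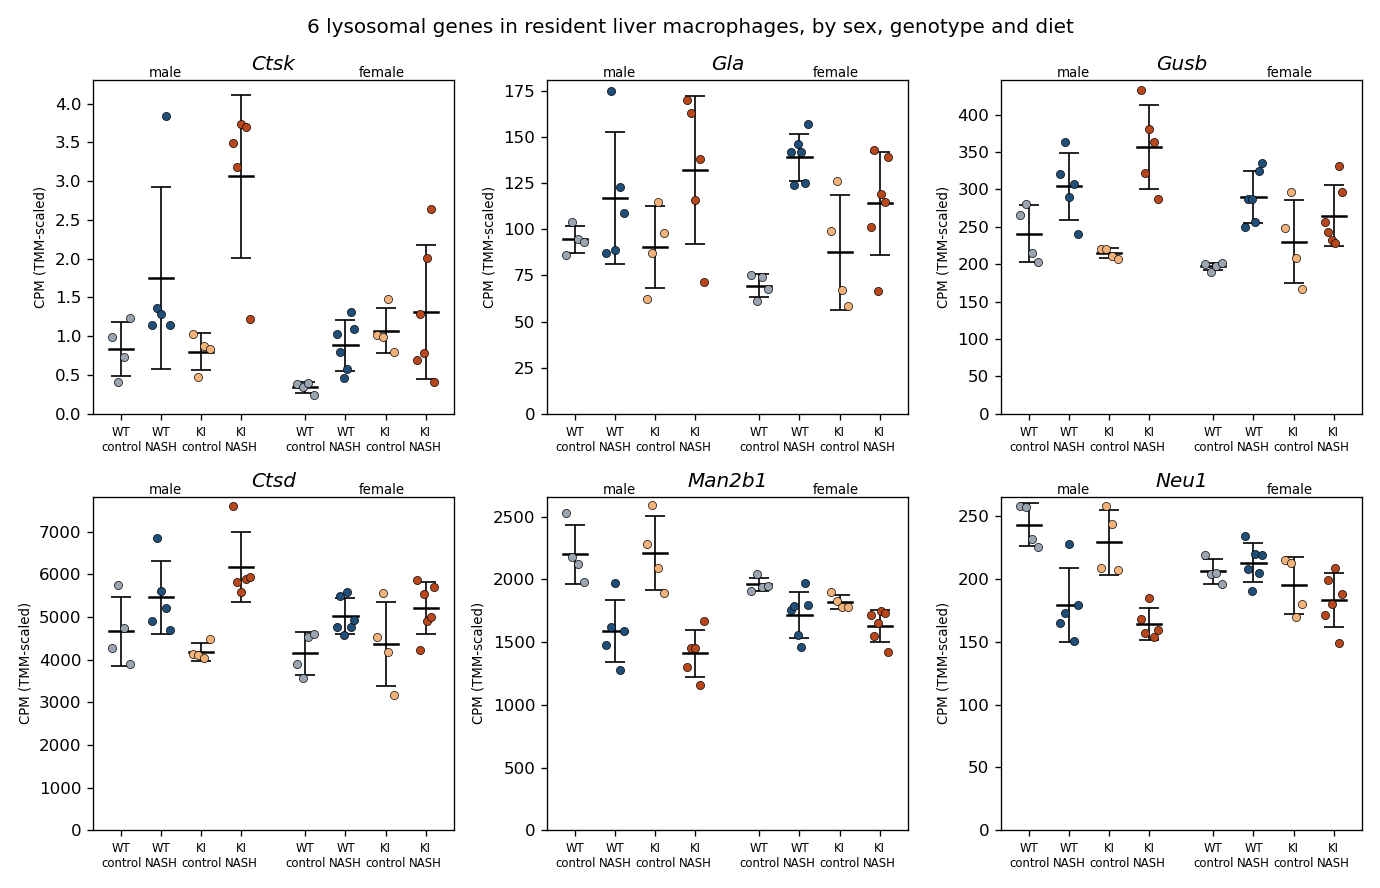
TMM-scaled CPM of 6 members in each macrophage library (points), with the group mean (line) and SD (whiskers), by sex, genotype and diet. Scaling was done within each sex. Gla and Gusb lie higher in the female WT NASH libraries than in every female WT control library, and Man2b1 lies lower in the male NASH libraries of both genotypes.

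Genotype alone was not accompanied by a called member in macrophages. KI and WT were compared on the control and on the NASH diet in males (0 of 28 in each, against 0.0% and 3.13% of tested genes) and in females (0 of 28 in each, against 4.64% and 0.561%). At an unadjusted p under 0.05 there were 1 and 1 members in males and 5 and 3 in females, and DESeq2 called 0 and 1 in males and 3 and 1 in females. The smallest adjusted p was that of Ctsk in female controls, with KI libraries at 0.801 to 1.48 CPM and WT libraries at 0.241 to 0.399 CPM (1.62 ± 0.49, adjusted p = 0.0644), with no overlap and few counts. Ctsa followed in the same comparison (-0.23 ± 0.07, adjusted p = 0.0686). On the NASH diet the members with the smallest p were Ctsl (-0.31 ± 0.09, adjusted p = 0.101) and Ctsf (-0.26 ± 0.08, adjusted p = 0.114) in females and Ctsc (-0.24 ± 0.09, adjusted p = 0.181) and Ctsh (-0.17 ± 0.08, adjusted p = 0.307) in males. On the control diet in males they were Lamp2 (-0.22 ± 0.09, adjusted p = 0.676) and Asah1 (-0.29 ± 0.15, adjusted p = 0.768). Without WT NASH replicate 4 the male NASH comparison called 2 members, and without KI control replicate 4, KI NASH replicate 5 or KI NASH replicate 6 the female control comparison called 1. All genes called then numbered 975 against 408 in males, and 919, 761 and 558 against 596 in females. In males on the NASH diet 6 of 7 hepatocyte markers were higher in KI, with sums of 452 to 2710 CPM against 64.7 to 313 CPM in WT, and their part was not tested.

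The female minus male tests in macrophages called 0 of 28 members for the diet effect in WT (0.0224% of 13373 genes) and 0 of 28 for the KI effect on the NASH diet (4.37%). At an unadjusted p under 0.05 there were 6 and 2, and DESeq2 called 1 in each. Neu1 came closest in the first, with a female minus male difference of 0.47 ± 0.14 (adjusted p = 0.0943), and Ctsl in the second, with -0.50 ± 0.16 (adjusted p = 0.0814). The first test called 1 member without male WT NASH replicate 3, and the second called 1 without male WT NASH replicates 4 or 5, male KI NASH replicate 2 or female KI control replicate 2. All genes called then numbered 28 against 3 in the first, and 720, 546, 701 and 589 against 584 in the second.

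Other lysosomal genes in macrophages included larger changes than any member. Atp6v0d2, a V-ATPase subunit of osteoclasts and macrophages, rose with diet by 5.86 ± 1.25 in male KI, 3.77 ± 1.12 in male WT, 3.47 ± 0.84 in female WT and 3.41 ± 0.82 in female KI on the log2 scale (adjusted p = 0.0035, 0.0474, 0.0145 and 0.0385). Cd63 rose by 5.68 in male KI, 3.46 in male WT and 4.32 in female WT (adjusted p = 0.00261, 0.0427 and 0.00367). In male KI, Sort1, a sorting receptor, rose by 3.71 and Igf2r by 1.12 (adjusted p = 0.00896 and 0.00182). By list, male KI macrophages had 2 of 16 V-ATPase subunits higher, 3 of 10 regulators and sorting genes higher and 2 lower, and 6 of 31 further lysosomal genes higher and 5 lower. Male WT macrophages had 1 of 16, 0 of 10 and 1 of 31 higher and 6 of 31 lower.

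Over the 20 comparisons within a tissue and sex, 26 of the 28 members were called at least once. The share of all tested genes called at least once was not counted. Single comparisons called up to 37.0% of them, so the number for the members is not read as a trait of lysosomal genes. Tpp1, a serine protease lost in a form of Batten disease, and Lamp2 were never called. Hexa was higher with the NASH diet in male WT liver (0.95) and lower in male KI macrophages (-0.22, from 761 to 885 CPM to 638 to 741 CPM), in libraries that share no sample. Ctsd was higher in both (0.50 and 0.56), as was Ctsk (2.05 and 1.92). Ctss, the member with the second largest diet difference in male liver, was at 3060 to 3660 CPM in male WT control macrophages and 1800 to 3150 CPM in the NASH macrophages, a difference that did not pass the test.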

How the data were processed

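Libraries were made with a stranded poly(A) RNA kit from total liver and from sorted liver macrophages, per the labels' protocols. The authors deposited whole-number read counts per gene symbol, not normalized, in 3 tables, and mm10 is the build in the submitters' processing notes. For the aligner, counter, annotation and strandedness of counting the record is the same: not given in the sources used here. Reads of overlapping genes may therefore be shared. Groups came from the labels. Over genes with a summed count of 20 to 200, male liver WT control replicates 3 and 4 had a mean chi-square per gene of 0.0671. The 121 other pairs within groups had 2.05 to 11.9. Genes with higher summed counts were not part of this check. The rounded mean of replicates 3 and 4 was used as 1 library.

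Counts were filtered with filterByExpr (minimum count 10, minimum total 15), scaled with TMM and tested with edgeR 4.0.16 (limma 3.58.1, R 4.3.3) by the quasi-likelihood test, Benjamini-Hochberg adjusted over all genes tested, at a threshold of 0.05. The 4 groups of a tissue and sex shared 1 fit and 1 TMM scaling of the CPM values. Sex differences were tested over all 8 groups of a tissue. The procedure was tested on simulated data. Members past the threshold were named, up to 6 per comparison with the largest absolute log2 fold change in full, and where none passed the 2 with the smallest p. In other lysosomal lists the called genes with the largest change were named. Alternatives were DESeq2 1.42.0, RLE size factors, no filter, a replicate block, 2-group fits, unmerged replicates, and leaving out single libraries, libraries with contradicting sex genes or, chosen after seeing the data, macrophage libraries with Lyz2 under 200 CPM. The members and gene lists were chosen with earlier results of these data known. Same-numbered libraries correlated at medians of -0.03 to 0.04, with single pairs up to 0.56 in male and 0.52 in female macrophages. Replicate numbers were not used as pairs in the main fits.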

Additional observations from a re-analysis of the deposited data

Results flagged for a closer look

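Of 42 combinations of a named member and a group of 4 to 6 libraries that were checked for a library far from the others, 4 had one. Chance gives about 1 in 20. Ctsa was at 1160 CPM in female WT NASH macrophage replicate 6, against 1070 to 1100 CPM in the other 5 libraries. Ctsd was at 7600 CPM in male KI NASH macrophage replicate 1, against 5580 to 5940 CPM. Ctsk was at 1.22 CPM in male KI NASH macrophage replicate 5, against 3.18 to 3.73 CPM. Scarb2 was at 263 CPM in female KI NASH liver replicate 2, against 213 to 219 CPM.

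Tests of the difference between effects passed for 4 members. In male liver the diet effect on Ctss was smaller in KI than in WT (difference -1.45 on the log2 scale). In liver, where sex and table cannot be told apart, the diet effect on Psap in WT was smaller in females than in males (female minus male -0.59). For KI against WT on the NASH diet in liver, the female minus male difference was 2.25 for Ctsk, 1.09 for Ctss, 0.77 for Hexa and 0.80 for Psap.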

How the results depend on the processing

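Of 52 calls of a member in a comparison, refitted 1280 times under the alternatives, 1132 refits kept the call, 148 lost it and 0 reversed the direction. RLE size factors kept all 24 counts of called members within 1.5 times. DESeq2 moved 11 of the 24: in male liver to 6 for KI against WT on the control diet and 4 for the interaction, in female liver to 1 for KI against WT on the control diet and 1 for the interaction, in male macrophages to 7 for diet in WT and 1 for KI against WT on the NASH diet, in female macrophages to 3 and 1 for KI against WT on the control and NASH diets, and for the sex differences to 3 for diet in WT liver and 1 and 1 in macrophages. Fitting only the 2 groups compared gave 5 for diet in male WT liver, 4 for diet in female KI liver, 0 for diet in male WT macrophages and 1 for KI against WT in female control macrophages. Without a filter on low counts, diet in male WT macrophages gave 1 and the liver sex difference for diet 0. With male liver WT control replicates 3 and 4 separate, KI against WT on the control diet gave 4 and the liver sex difference for diet 0. Without the libraries with contradicting sex genes, the male liver interaction gave 4, diet in male WT macrophages 1 and the liver sex difference for diet 4. Without the macrophage libraries low in Lyz2, diet in WT gave 0 in males and 0 in females, where 55 and 10 genes were called in all against 1068 and 1652. The log2 fold changes were then -0.44 for Neu1, -0.48 for Man2b1, 1.18 for Gla, 0.61 for Gusb, 0.43 for Psap and -0.17 for Ctsa.

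Same-numbered libraries correlated at medians of 0.03, 0, 0.04 and -0.03 in male liver, female liver, male macrophages and female macrophages. The highest single pairs were at 0.23, 0.13, 0.56 and 0.52 in that order. The replicate block moved 3 counts. It took the male liver interaction to 0, diet in male WT macrophages to 7 and the liver sex difference for diet to 0. For diet in male WT macrophages 1952 genes were called in all with the block, against 1068 in the main fit. With the replicate block 6 calls of single members no longer passed the threshold: Ctsb for diet in male WT liver, Gusb for KI against WT in male NASH liver, Ctss in the male liver interaction, Scarb2 for diet in female KI liver, Psap for diet in female WT macrophages and Psap in the liver sex difference for diet.

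Leaving out 1 library at a time gave these ranges for diet in WT, diet in KI, KI against WT on the control diet, KI against WT on the NASH diet and the interaction, in that order. They were 7 to 11, 0 to 0, 0 to 2, 11 to 15 and 0 to 4 in male liver. Female liver gave 0 to 2, 1 to 3, 0 to 1, 0 to 0 and 0 to 1. The ranges were 0 to 5, 8 to 17, 0 to 0, 0 to 2 and 0 to 0 in male macrophages, and 2 to 5, 0 to 0, 0 to 1, 0 to 0 and 0 to 0 in female macrophages. The sex differences for diet in WT and for KI on the NASH diet gave 0 to 4 and 4 to 5 in liver and 0 to 1 and 0 to 1 in macrophages. The number of all genes called moved in many of these refits as well, and the cause of these changes was not tested. Depth limits Ctsk, with 4 to 144 reads per liver library and 5 to 84 per macrophage library.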
